A study of Mus musculus with 9 samples.

Results

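The 10 genes described here are Pou5f1, Fgf5, Otx2, Pou3f1, Utf1, Sall4, Dppa4, Lin28a, Lin28b and Grhl2, found by gene name among the 47729 genes of the expression table. All 10 passed the filter on low values and were among the 17951 genes tested. Embryonic stem cells (ESCs) are kept in culture as cells resembling the early epiblast, the tissue from which the embryo forms. As the epiblast implants it passes from a naive state, through a formative state in which it becomes able to respond to lineage signals, towards a primed state. Pou5f1 encodes Oct4, a POU-domain transcription factor that pluripotent cells need throughout. Fgf5, Otx2 and Pou3f1 are known as genes that rise as the naive state is left, whereas Utf1, Sall4, Dppa4, Lin28a and Lin28b are expressed broadly in pluripotent cells and Grhl2 acts in epithelial cells of the epiblast and elsewhere.

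RNA-seq was performed on mouse ESCs of 1 inducible line grown in medium with LIF and serum, which supports self-renewal. The line carries, in all groups, a transgene placed upstream of Hprt by cassette exchange, which in the presence of doxycycline (dox) drives a FLAG-tagged E47 (a product of the E2A gene, symbol Tcf3) tethered by a flexible linker to a second E47, so that it acts as a forced E2A homodimer. E2A is a basic helix-loop-helix (bHLH) factor, and such factors bind the E-box, CANNTG. There were 3 groups of 3 libraries: cells without dox (0 h), cells after 18 h and cells after 24 h in dox at 1 µg/ml, as the sample titles and treatment entries give them, although a general treatment note in the labels names other hours. Cells lacking the transgene but given dox were not analysed here, so that a response to dox and a response to the homodimer cannot be told apart. The only libraries without dox were those of 0 h, so that an effect of time in culture cannot be told apart from either. Both dox groups were compared with the same 0 h libraries.

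Levels are given in FPKM, fragments per kilobase of transcript scaled to the depth of the library, which can be compared between genes. The libraries held 22028363 to 26471569 reads on the 19210 genes of the filtered read table. As a check of the labels, Tcf3 was at 41.2, 37.7 and 38.5 FPKM without dox, between 107 and 116 after 18 h and between 93.6 and 108 after 24 h. Markers of the labelled cell type were present. All 6 pluripotent markers (Pou5f1, Sox2, Nanog, Zfp42, Sall4 and Dppa5a) were at 1 FPKM or more at each time, and their summed level was 1188 to 1826 FPKM without dox, 977 to 1551 after 18 h and 938 to 1532 after 24 h. Markers of other cell types moved with time in dox. The summed level of 8 neural markers was 78.1 to 81.1 FPKM without dox, 111 to 118 after 18 h and 115 to 124 after 24 h, and that of 7 trophoblast markers was 8.88 to 10.8, 21.3 to 26.7 and 25.2 to 31.7. Most of the neural sum was Tubb3 and Nes (41.5 and 36.0 FPKM on average without dox, 63.1 and 47.1 after 24 h). Neither passed the test below, but both passed after 24 h with replicate number as a blocking factor (adjusted p=0.000739 and 0.00543 in limma). The trophoblast sum rose mainly through Hand1 (1.22 FPKM on average without dox, 11.6 after 24 h), Tfap2c (5.45, 11.0) and Cdx2 (0.476, 3.44). Eomes was at 1.07 and 0.813 FPKM, Elf5 at 0.0192 and 0.00639, Krt7 at 0.597 and 0.821 and Ascl2 at 0.811 and 1.03. The summed level of 8 primitive endoderm markers was 5.40 to 6.11 FPKM without dox, 4.63 to 5.17 after 18 h and 5.61 to 6.44 after 24 h, those of 6 mesendoderm markers (1.76 to 3.45) and 7 fibroblast markers (5.51 to 10.9) overlapped between the times, and no marker on these lists was at 0 in every library. The part of the neural and trophoblast markers in the changes below was not tested. In RNA from whole cultures, fewer cells expressing a gene and less of its RNA per cell cannot be told apart.

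The sequences upstream of the 3 genes that passed the test after 24 h are shown because E2A factors bind E-boxes near the genes they act on. They are the 250 bases before the start site of each gene in RefSeq (GRCm38.p6), read on the strand of the gene, with any CANNTG in capitals. They lie at chr17:35505782-35506031 on the plus strand for Pou5f1, chr5:98253934-98254183 on the plus strand for Fgf5 and chr4:134018817-134019066 on the minus strand for Lin28a.
Pou5f1: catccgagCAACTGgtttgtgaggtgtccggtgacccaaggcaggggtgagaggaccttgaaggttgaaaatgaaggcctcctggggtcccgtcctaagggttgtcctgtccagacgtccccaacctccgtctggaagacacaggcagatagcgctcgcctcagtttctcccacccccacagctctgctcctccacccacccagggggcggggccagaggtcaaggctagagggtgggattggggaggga
Fgf5: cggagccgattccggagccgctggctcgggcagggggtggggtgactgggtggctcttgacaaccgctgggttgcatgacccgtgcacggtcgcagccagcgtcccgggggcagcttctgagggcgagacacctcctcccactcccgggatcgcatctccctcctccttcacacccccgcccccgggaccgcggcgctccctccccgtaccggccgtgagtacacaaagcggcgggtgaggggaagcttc
Lin28a: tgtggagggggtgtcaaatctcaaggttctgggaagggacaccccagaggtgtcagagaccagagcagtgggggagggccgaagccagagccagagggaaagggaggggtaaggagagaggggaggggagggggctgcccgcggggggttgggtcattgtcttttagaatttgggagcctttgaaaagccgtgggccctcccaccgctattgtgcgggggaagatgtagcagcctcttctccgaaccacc
The Pou5f1 sequence held a single match, CAACTG, which began 242 bases before the start site, and the windows of Fgf5 and Lin28a held none. Of the 32851 RefSeq promoter windows of this length, 66.2% held CANNTG on either strand (the motif is its own reverse complement), so that a match is common, and its absence says only that these letters are not in this window. RefSeq windows were used for 6 of the 10 genes, these 3, Otx2, Utf1 and Lin28b, and 6 of their 10 start sites had a match. A second start site of Pou5f1, inside the gene, had CAGCTG and CATGTG, beginning 143 and 51 bases before it. The Fgf5 window was rich in CpG, with 24 such dinucleotides against a median of 6 over all windows.

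The question for these genes was whether the forced homodimer altered the pluripotency programme while self-renewal conditions were kept. After 24 h in dox, Fgf5 was upregulated 2.55-fold, whereas Pou5f1 was at 0.67 and Lin28a at 0.80 of the 0 h level, and Otx2, Pou3f1, Utf1, Sall4, Dppa4, Lin28b and Grhl2 did not pass the test. The test was limma on log2(FPKM+0.1) with all 9 libraries, and a gene passed with an adjusted p of 0.05 or less over all 17951 genes. That fit had no blocking factor. With replicate number as a block, as given below, Utf1 (adjusted p=0.0132 in limma) and Dppa4 (0.000703) also passed after 24 h, both downward. The counts that follow are without the block. At 18 h 1 of the 10 genes was upregulated and 1 downregulated, where 4.27% and 3.72% of all genes were, and after 24 h 1 was upregulated and 2 were downregulated, where 6.52% and 5.11% of all genes were. Fgf5 alone of the 10 also reached a 2-fold change, at both times, as did 1.33% of all genes in the upward direction after 18 h and 2.07% after 24 h. Counts of 1 or 2 of 10 genes were not read as a difference from these shares. The median log2 fold-change of the 10 genes was −0.04 after 18 h and −0.12 after 24 h, and that of all genes −0.003 and 0.004.

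**Figure D1:**
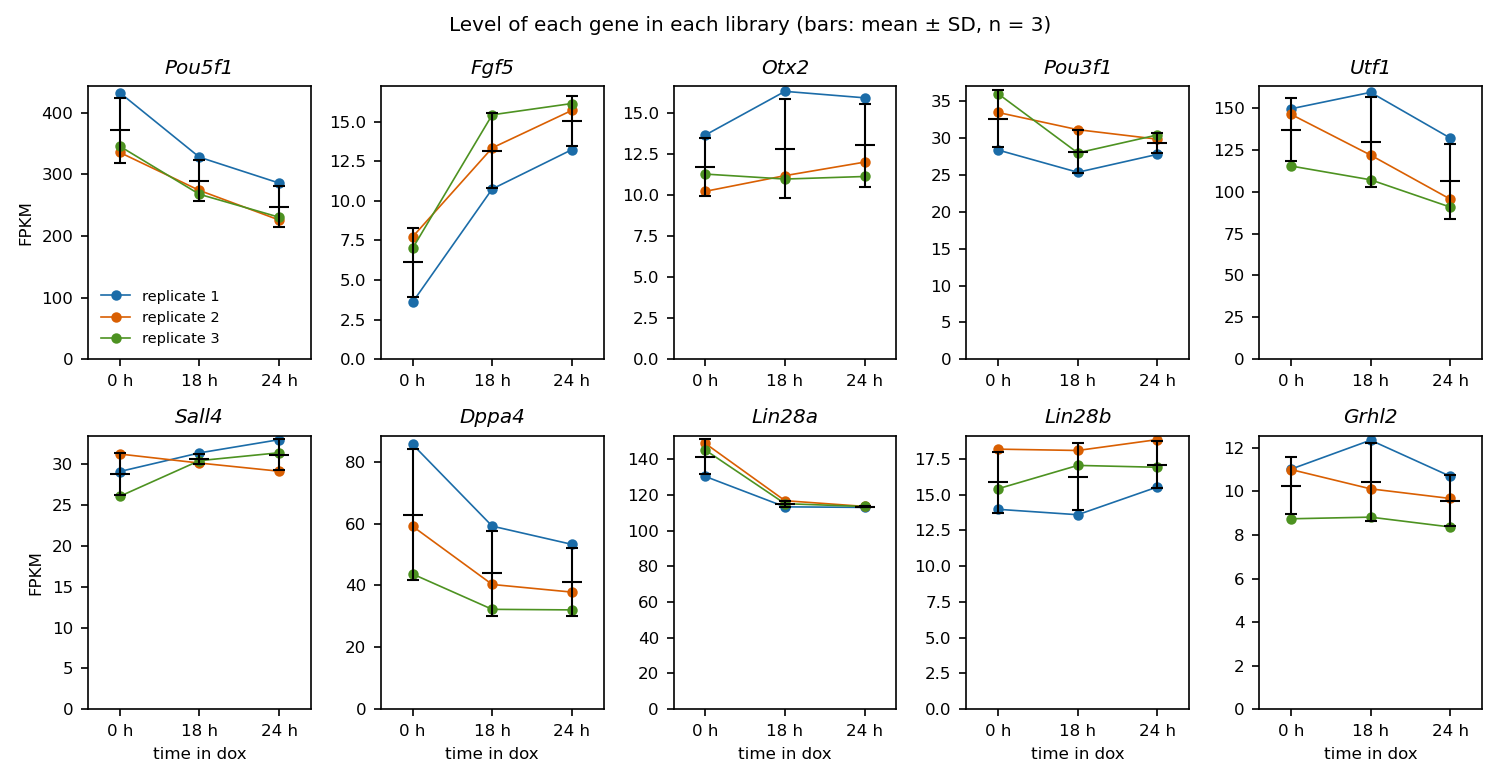
FPKM of each of the 10 genes (y axis, from 0) in each library at 0, 18 and 24 h in dox (x axis), with libraries of the same replicate number joined and black bars for the mean±s.d. of 3 libraries. Fgf5 lies above its 0 h values in all 6 dox libraries, and Pou5f1 and Lin28a lie below theirs.

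Libraries of the same replicate number deviated together, which touches the tests of every gene below. Over 11893 genes, the correlation of deviations from the time-point means was 0.211 to 0.548 for the 9 pairs of libraries of the same number and −0.399 to 0.110 for the 18 pairs of different numbers. Among the 10 genes, replicate 1 was the highest library at every time for 5 (Pou5f1, Otx2, Utf1, Dppa4 and Grhl2) and the lowest at every time for 4 (Fgf5, Pou3f1, Lin28a and Lin28b). The share of all genes with such an order was not computed, so that these counts are not read as particular to the 10 genes. Because same-number libraries deviated together, each comparison was also fitted with replicate number as a blocking factor. That fit is given where it changed a call of the 10 genes or the number of calls in a list after 24 h. With the block, 1 of the 10 genes was upregulated and 4 were downregulated after 18 h, against a background of 10.8% and 10.7% of all genes, and the same numbers held after 24 h, against 13.6% and 12.5%. edgeR on recovered reads with the block gave the same numbers at both times, where 13.9% and 13.1% of all genes were called at 18 h and 16.4% and 14.9% at 24 h.

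**Figure D2:**
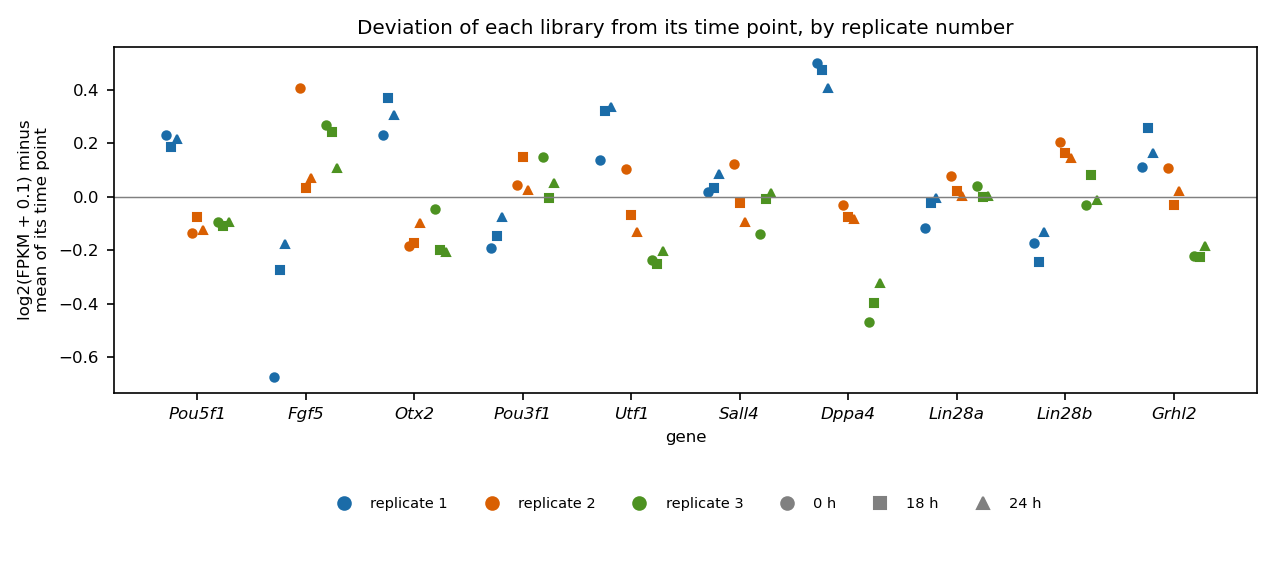
Deviation of each library from the mean of its time point (y axis, log2(FPKM+0.1)) for each of the 10 genes (x axis), by replicate number (colour) and time (symbol). Replicate 1 lies above the mean at all 3 times for Pou5f1 (0.18 to 0.23) and Dppa4 (0.41 to 0.50) and below it for Fgf5 (−0.67 to −0.18).

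Pou5f1 (ENSMUSG00000024406) lies at chr17:35506018-35510772 of GRCm38 on the plus strand and has 6 exons in GENCODE M21. It was the most abundant of the 10 genes at every time and stood at the 99.4th percentile of the genes tested without dox. Its level was 433, 336 and 346 FPKM in replicates 1, 2 and 3 without dox, 328, 274 and 268 after 18 h and 286, 226 and 231 after 24 h. The libraries of each dox group lay below all 3 of the 0 h libraries, and those of 18 h and 24 h overlapped. The mean fell from 371±53.3 FPKM (mean±s.d., n=3) to 289.9±33.1 after 18 h and 248±33.4 after 24 h. The log2 fold-change from 0 h was −0.58 at the later time (95% interval −0.87 to −0.29), with an adjusted p of 0.0220. This call was lost without replicate 1 of 0 h (adjusted p=0.0706), replicate 2 of 24 h (0.0864) or replicate 3 of 24 h (0.0865), and it reached 0.0516 when the 18 h libraries were left out of the fit. The value at the earlier time, −0.35 (−0.64 to −0.06), did not pass in limma (adjusted p=0.126), but passed with the replicate block (0.00149) and in DESeq2 (0.0366), and it was −0.23 on quantile-normalized values (0.194). The 3 same-number differences from 0 h to 24 h were close to each other, at −0.60, −0.57 and −0.58. Gm19553, an antisense transcript that overlaps its exons, had a mean of 0.593 FPKM over the 9 libraries.

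Sall4 (chr2:168748332-168767943, minus strand) encodes a zinc-finger factor that works with Oct4 and Nanog in the pluripotency network. Its level was 29.1, 31.3 and 26.1 FPKM without dox, 31.4, 30.2 and 30.5 after 18 h and 33.0, 29.2 and 31.4 after 24 h. The groups overlapped at each comparison, and the log2 fold-change was 0.09 (−0.08 to 0.26) after 18 h and 0.12 (−0.05 to 0.29) after 24 h, with adjusted p of 0.481 and 0.345 in limma. These intervals leave out a change of 2-fold in either direction. With a library left out the values ranged from 0.02, without replicate 3 of 0 h, to 0.15, without replicate 2 of 0 h, after 18 h, and with the same libraries left out from 0.05 to 0.18 after 24 h.

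Fgf5 (ENSMUSG00000029337; chr5:98254184-98277030, plus strand, 3 exons) encodes a secreted fibroblast growth factor that marks the early post-implantation epiblast. It was the least abundant of the 10 genes without dox, and its lowest library had 215 reads. Its level was 3.60, 7.73 and 7.01 FPKM without dox, 10.8, 13.3 and 15.4 after 18 h and 13.2, 15.7 and 16.2 after 24 h. The libraries of both dox groups lay above all 0 h libraries, and replicate 1 was the lowest at each time. The log2 fold-change was 1.15 (0.58 to 1.73) after 18 h, with an adjusted p of 0.0283 in limma, and 1.35 (0.77 to 1.93) after 24 h, with 0.0125. The difference from 0 h to 24 h was 1.85 in replicate 1, against 1.01 and 1.19 in replicates 2 and 3. Without replicate 1 of 0 h the log2 fold-change was 0.82 after 18 h, short of 2-fold, and 1.02 after 24 h. The 18 h call was lost without replicate 2 (adjusted p=0.0946) or 3 (0.108) of 18 h, with no filter on low values (0.0526) and with the 24 h libraries left out of the fit (0.0839), and the 24 h call without replicate 2 (0.0527) or 3 (0.0552) of 24 h, whereas with the block the adjusted p was 0.00382 after 18 h and 0.00171 after 24 h.

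Otx2 (chr14:48657677-48673819, minus strand) encodes a homeodomain factor that directs the exit from the naive state together with Oct4. Its level was 13.7, 10.2 and 11.3 FPKM without dox, 16.3, 11.2 and 11.0 after 18 h and 15.9, 12.0 and 11.1 after 24 h. Replicate 1 was the highest library at each time and the groups overlapped. The log2 fold-change was 0.11 (−0.30 to 0.53) after 18 h and 0.14 (−0.27 to 0.56) after 24 h, with adjusted p of 0.737 and 0.653 in limma, and the same-number differences were not of a single sign, at 0.22, 0.23 and −0.02 from 0 h to 24 h. Otx2 did not pass at either time while Fgf5 did, and the difference between the responses of these genes was not tested.

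Pou3f1 (chr4:124656807-124660655, plus strand, 1 exon) encodes Oct6, a POU-domain factor of the epiblast and the early neural lineage. Its level was 28.4, 33.5 and 36.0 FPKM without dox, 25.4, 31.1 and 28.0 after 18 h and 27.8, 29.9 and 30.4 after 24 h. The groups overlapped, and replicate 1 was the lowest library at each time. On the log2 scale the change was −0.21 (−0.44 to 0.02) after 18 h (adjusted p=0.230 in limma) and −0.15 (−0.37 to 0.08) after 24 h (0.379). With the replicate block the 18 h value passed, at an adjusted p of 0.0484, and the 24 h value did not, at 0.120. With a library left out the 18 h value ranged from −0.31 to −0.13, and the 24 h value from −0.24, without replicate 1 of 0 h, to −0.07, without replicate 3 of 0 h. Gm2164, antisense to Pou3f1, had a mean of 2.81 FPKM.

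Grhl2 (chr15:37233036-37363569, plus strand) encodes a grainyhead-like factor that keeps epithelial genes open to transcription. Its level was 11.0, 11.0 and 8.75 FPKM without dox, 12.4, 10.1 and 8.82 after 18 h and 10.7, 9.68 and 8.37 after 24 h. Replicate 3 was the lowest library at each time and the groups overlapped. Its change on the log2 scale was 0.02 (−0.31 to 0.34) after 18 h and −0.10 (−0.42 to 0.23) after 24 h, with adjusted p of 0.958 and 0.704 in limma. Gm16136, an antisense transcript that overlaps the exons of Grhl2, had a mean of 1.77 FPKM.

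Utf1 (chr7:139943789-139945112, plus strand) and Dppa4 (chr16:48283733-48294237, plus strand) encode chromatin-associated proteins of pluripotent cells. Utf1 was at 149, 146 and 115 FPKM without dox, 159, 122 and 107 after 18 h and 132, 95.6 and 90.8 after 24 h. The 24 h libraries overlapped the lowest of the 0 h libraries. Its log2 fold-change was −0.09 (−0.50 to 0.31) after 18 h (adjusted p=0.786 in limma) and −0.38 (−0.79 to 0.03) after 24 h (0.207), and the 24 h value passed with the block (0.0132), every same-number difference being below 0 (−0.18, −0.61 and −0.34).

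Next to Fgf5 (36.0%), Dppa4 had the largest coefficient of variation of the 10 genes without dox, 33.8%. Its level was 85.7, 59.2 and 43.7 FPKM without dox, 59.2, 40.3 and 32.3 after 18 h and 53.3, 37.9 and 32.1 after 24 h. Replicate 1 was the highest and replicate 3 the lowest at each time, and the groups overlapped, although each library lay below the 0 h library of its own number. Without the block the log2 fold-change was −0.51 (−1.16 to 0.15) after 18 h and −0.59 (−1.24 to 0.06) after 24 h, with adjusted p of 0.312 and 0.218 in limma. The 18 h value was −0.26 without replicate 1 of 0 h and −0.31 without replicate 3 of 18 h, and the 24 h value −0.34 without replicate 1 of 0 h. With a library left out these values ranged from −0.74 to −0.26 and from −0.82 to −0.34. With the replicate block the intervals narrowed to −0.63 to −0.39 and −0.71 to −0.47, and the adjusted p became 0.00149 and 0.000703. The same-number differences from 0 h to 24 h were −0.68, −0.64 and −0.44.

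**Figure D3:**
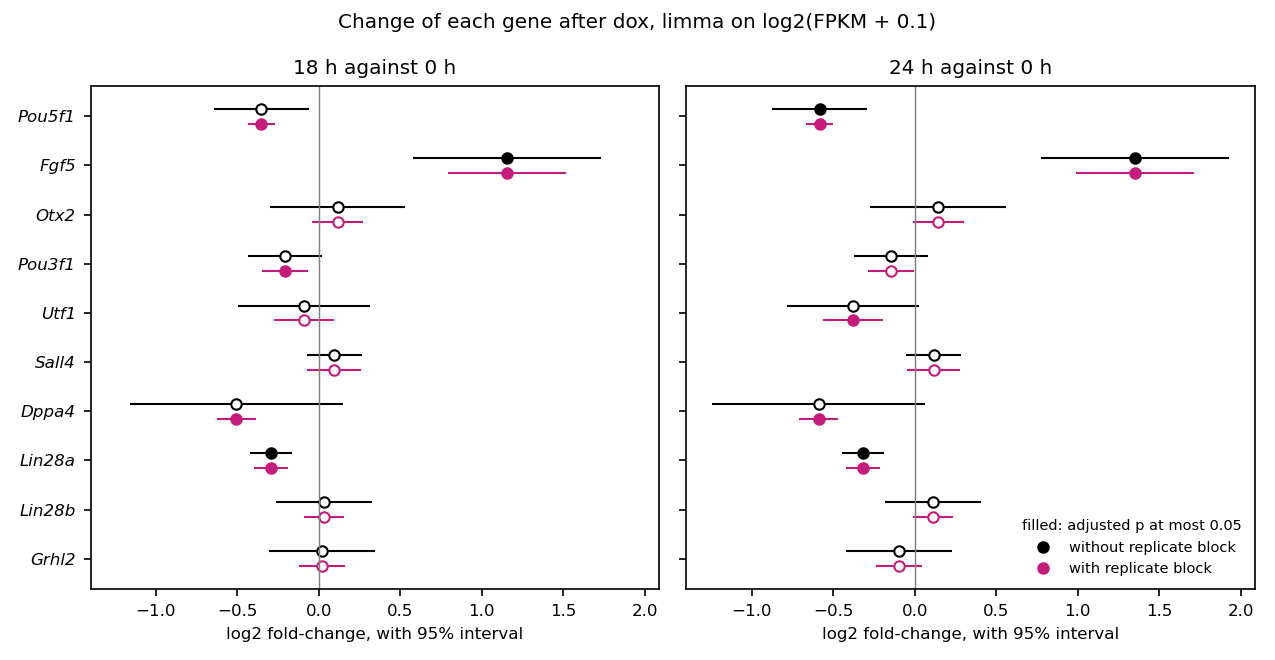
Log2 fold-change of each of the 10 genes at 18 h (left) and 24 h (right) against 0 h, with 95% intervals, from limma without (black) and with (pink) the replicate block, filled where the adjusted p was 0.05 or less. The block leaves the estimates in place and narrows those of Dppa4, after 24 h to −0.71 to −0.47.

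Lin28a and Lin28b encode RNA-binding proteins that block the maturation of let-7 microRNAs. Lin28a (ENSMUSG00000050966; chr4:134003330-134018841, minus strand, 7 exons) was at 130, 149 and 145 FPKM without dox, 113, 117 and 115 after 18 h and 113 in each of the 3 libraries after 24 h. All dox libraries lay below all 0 h libraries. The decrease was small and the spread in dox narrow, with 141±9.77 FPKM without dox, 115±1.73 after 18 h and 113±0.304 after 24 h. The log2 fold-change was −0.30 (−0.42 to −0.17) after 18 h (adjusted p=0.0173 in limma) and −0.32 (−0.45 to −0.19) after 24 h (0.0104). Both calls were lost on quantile-normalized values, where the log2 fold-changes were −0.20 and −0.18 (adjusted p=0.0919 and 0.110), and the 18 h call was lost without replicate 3 of 0 h (0.0523), replicate 2 of 18 h (0.0582) or replicate 3 of 18 h (0.0683), and at 0.0619 when the 24 h libraries were left out of the fit. Lin28b (chr10:45376620-45486395, minus strand), its paralogue, was at 14.0, 18.2 and 15.4 FPKM without dox, 13.6, 18.1 and 17.0 after 18 h and 15.5, 18.8 and 16.9 after 24 h. Those groups overlapped, and the log2 fold-change was 0.03 (−0.26 to 0.33) and 0.11 (−0.18 to 0.41), with adjusted p of 0.902 and 0.613 in limma.

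Between 18 h and 24 h none of the 10 genes passed in limma, where 0.0223% of all genes did, and none had an unadjusted p under 0.05. The lowest was that of Pou5f1, at 0.107 for a log2 fold-change of −0.23. With a library left out this value ranged from −0.34 to −0.14 in limma, and that of Utf1 (−0.29) from −0.45 to −0.13. edgeR and DESeq2 on recovered reads also called 0 of the 10 genes. With the replicate block 2 genes had an unadjusted p under 0.05 in limma and 0 passed after adjustment, and in edgeR with the block Pou5f1 (−0.24, adjusted p=0.00886) and Utf1 (−0.29, 0.0308) passed, where 1.11% of all genes did.

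The order of the mean levels changed little. At 0 h it ran Pou5f1, Lin28a, Utf1, Dppa4, Pou3f1, Sall4, Lin28b, Otx2, Grhl2 and Fgf5, and the ranges of the libraries overlapped between Lin28a and Utf1, between Pou3f1 and Sall4 and between Otx2 and Grhl2. At 24 h Fgf5, at 15.0±1.57 FPKM, stood between Lin28b (17.1±1.66) and Otx2 (13.0±2.55) and overlapped both. It moved from the 61.7th to the 78.3rd percentile of the genes tested, and Pou5f1 from the 99.4th to the 99.1st.

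Genes with profiles most like these were sought by the root-mean-square difference, over the 9 libraries, between log2(FPKM+0.1) values centred on the mean of each gene, among 11892 other genes with a mean of 1 FPKM or more. For Pou5f1 the nearest were Stoml1 (0.068), Ap1m2 (0.073) and Ftl1 (0.075), and the nearest of the other 9 was Utf1, at 0.172. For Fgf5 they were Mrc2 (0.121), Plat (0.156) and Fkbp14 (0.194), which rose by 1.22, 1.16 and 1.21 on the log2 scale after 24 h. For Otx2 they were Elmo1 (0.062), Itpr3 (0.070) and B4galnt3 (0.071). The 9 libraries share their replicate numbers, which enter these distances.

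Of 28 other genes tied to the formative epiblast, 2 were upregulated and 7 downregulated after 24 h and 19 did not pass, with a median log2 fold-change of −0.13, where 6.52% and 5.11% of all genes rose and fell. After 18 h 1 was upregulated and 5 were downregulated, where 4.27% and 3.72% of all genes were. With the block, after 24 h, 5 were upregulated and 11 downregulated, where 13.6% and 12.5% of all genes were. These shares apply to the other lists after 24 h too. Tdgf1, which encodes Cripto, the co-receptor of Nodal, fell from 131±12.1 to 47.5±4.38 FPKM (log2 fold-change −1.46, adjusted p=0.000115 in limma). The log2 fold-changes were −1.19 for Foxd3, a forkhead factor of the epiblast, −1.07 for Dnmt3l, the cofactor of de novo DNA methylation, −0.86 for Tcf15, a bHLH factor of cells leaving the naive state, −0.86 for Etv4, a target of FGF signalling, and −0.77 for Pim2, a kinase. Lef1 (0.43), Sall2 (0.70) and Spry2 (−0.22) made up the rest of the calls, and of these Lef1 and Spry2 were singled out after their values were seen, as were Jarid2 and Spint1 below. The calls numbered 5 without replicate 1 of 0 h, 5 without replicate 2 of 24 h and 4 without replicate 3 of 24 h. Fewer of all genes also passed after 24 h in each fit with a library left out than with all 9 libraries. The shares of all genes given above therefore do not apply to such counts, here or in the other lists.

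**Figure D4:**
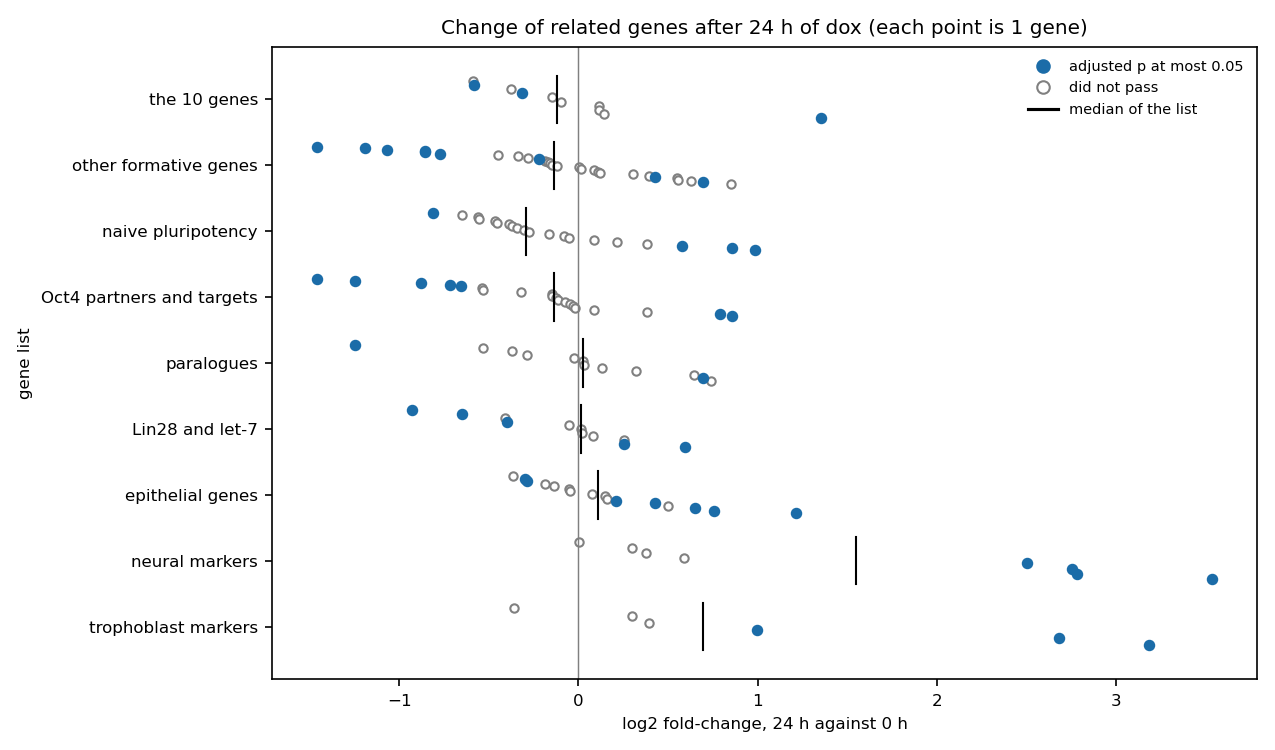
Log2 fold-change from 0 h to 24 h in dox (x axis) of the 10 genes and of genes in related lists (y axis), each point a gene and each black line the median of the list, filled where the limma adjusted p was 0.05 or less. Calls in both directions appear in the formative, naive, Oct4, paralogue, let-7 and epithelial lists, and the neural and trophoblast markers that passed lie to the right.

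Among 20 naive pluripotency genes, 3 were upregulated and 1 was downregulated after 24 h (6.52% and 5.11% of all genes), and 16 did not pass. With the block the numbers were 4 and 7 (13.6% and 12.5% of all genes), and without replicate 3 of 24 h 2 genes passed. Nanog, the homeodomain factor of naive cells, rose from 40.6±5.51 to 73.4±8.12 FPKM (log2 fold-change 0.86, adjusted p=0.00735 in limma). Dppa3 (0.98) and Socs3 (0.58), a feedback inhibitor of LIF signalling, also rose, and Klf5 fell (−0.81). The median of the list was −0.29, of the other sign to most of its calls without the block. The calls added by the block were Klf4 (0.38) upward and Nr0b1 (−0.65), Tfcp2l1 (−0.56), Klf2 (−0.55), Lifr (−0.46), Dppa5a (−0.35) and Stat3 (−0.28) downward.

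Among 20 partners and known targets of Oct4, 2 were upregulated and 5 downregulated after 24 h (6.52% and 5.11% of all genes) and 13 did not pass, with a median of −0.14. With the block the numbers were 3 and 8 (13.6% and 12.5% of all genes), and without replicate 1 of 0 h 4 genes passed. Sox2, which binds DNA jointly with Oct4, was at 88.9±8.71 FPKM without dox and 87.8±8.49 after 24 h (log2 fold-change −0.02, adjusted p=0.929 in limma). Fgf4, a target of Oct4 and Sox2, fell by 1.25 on the log2 scale, from 16.8±4.98 to 6.98±1.97 FPKM. Lefty2 (−0.88), L1td1 (−0.71), Jarid2 (−0.66) and Tdgf1 fell, and Nanog and Lefty1 (0.79) rose. Of the genes that passed, Tdgf1, Nanog, Fgf4 and Sall2 are counted in more than a single list, and Pou5f1 is also among the pluripotent markers.

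Of 17 paralogues of the 10 genes, 12 were tested, and Fgf4 fell while Sall2, a relative of Sall4, rose from 4.80±1.20 to 7.69±0.588 FPKM. With the block 2 rose and 3 fell. Without replicate 1 of 0 h 1 paralogue passed, and without replicate 2 or 3 of 24 h 0 did. Fewer of all genes passed in these fits too. Of 13 genes of the Lin28 and let-7 pathway, 11 were tested (not Tut4 and Tut7), and 2 rose, 3 fell and 6 did not pass, with a median log2 fold-change of 0.01. Hmga2 (−0.93), Myc (−0.65) and Hmga1 (−0.40) fell, and Arid3a (0.59) and Arid3b (0.25) rose. With the block 3 rose and 4 fell, Igf2bp2 (0.25, adjusted p=0.0134 in limma) and Mycn (−0.41, 0.0114) being added. The number of calls was 3 with no filter on low values and 2 with the libraries of the 2 time points alone. It was 3 without replicate 2 of 18 h or replicate 1 of 24 h, 2 without replicate 1 of 0 h, replicate 2 of 0 h or replicate 2 of 24 h, and 1 without replicate 3 of 24 h. The let-7 microRNAs themselves were not analysed here.

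Of 16 epithelial genes, among them targets of Grhl2, 5 rose and 2 fell after 24 h. Krt8 and Krt18, keratins of simple epithelia, rose from 175±13.8 to 410±64.8 FPKM in the first case (log2 fold-change 1.21, adjusted p=0.000878 in limma) and by 0.76 on the log2 scale in the second. Cldn4 (0.65), Esrp2 (0.43), a splicing factor, and Spint1 (0.21) also rose, and Cldn7 (−0.30) and Epcam (−0.29), an adhesion molecule, fell. The number of calls was 4 without replicate 2 of 18 h, replicate 3 of 18 h or replicate 1 of 24 h, 3 without replicate 2 of 0 h or replicate 2 of 24 h, and 2 without replicate 3 of 24 h. In each of these fits the calls over all genes were also fewer than with all 9 libraries, and they were fewest without replicate 3 of 24 h. Of the 6 pluripotent markers Nanog rose and Pou5f1 fell, and with the block Dppa5a (−0.35) also passed. Without the block its adjusted p was 0.537 in limma, and its value was −0.09 without replicate 1 of 0 h, −0.16 without replicate 2 of 24 h, −0.22 without replicate 3 of 24 h and −0.65 without replicate 1 of 24 h. Of the neural markers 4 of 8 rose and none fell (Foxd4 3.54, Neurog3 2.78, Neurod4 2.75 and Sox1 2.50). These genes were at 0.351 FPKM or less on average without dox and their values depend on the pseudocount, being 1.18, 1.43, 0.89 and 1.33 in the same order with 1 and 6.01, 3.15, 4.41 and 2.81 with 0.01. With the block 6 neural markers rose, Tubb3 (0.59, adjusted p=0.000739 in limma) and Nes (0.38, 0.00543) being added. Of the 6 trophoblast markers tested, 3 rose (Hand1 3.19, Cdx2 2.68 and Tfap2c 1.00), Cdx2 by 1.59 with a pseudocount of 1. Eomes (−0.36), Krt7 (0.39) and Ascl2 (0.30) did not pass in limma, and Elf5 was too low to be tested. Of the fibroblast markers Pdgfrb rose (1.10) and Thy1 fell (−0.74). Both calls were kept in number without replicate 1 or 3 of 18 h, 1 call was left without any of the 3 libraries of 0 h, replicate 2 of 18 h or replicate 1 of 24 h, and 0 without replicate 2 or 3 of 24 h. None of the 7 primitive endoderm and 4 mesendoderm markers tested passed in limma after 24 h, where 2 and 1 of them had an unadjusted p under 0.05, and edgeR and DESeq2 called 0 and 0 of the former and 1 and 0 of the latter. With the block Amn (−0.78, adjusted p=0.0299 in limma) of the former and T (−0.90, 0.00713) and Gsc (1.38, 0.0416) of the latter passed. With a pseudocount of 1 these values were −0.31, −0.46 and 0.25, and with 0.01 that of Gsc was 3.53. The genes added by the block were named after their values were seen.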

How the data were processed

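The authors prepared stranded poly(A) libraries, trimmed the reads with cutadapt (version 1.9), aligned them to mouse GRCm38 with STAR and tested them with edgeR (version 3.16.5). The authors deposited FPKM for 47729 genes and, for 19210 genes that passed a filter, a signal in CPM against a normalized library size. The same deposited table holds log2 fold-changes and p-values of the authors' edgeR comparisons, which were not used. Whether counting used strand, and how multiply mapped reads were treated, is not given in the sources used here, so that reads of overlapping antisense genes cannot be told apart. From the deposited CPM all values came out as whole reads (tolerance of 0.01 read). The 10 genes and the related lists were chosen with earlier results of these data known. Genes with a mean of at least 0.1 FPKM were tested with limma (version 3.58.1, intensity trend) on log2(FPKM+0.1) over all 9 libraries, with Benjamini-Hochberg adjustment, and a fold-change on this scale understates that of low genes. The study's methods used a count test, for which edgeR (version 4.0.16, quasi-likelihood) and DESeq2 (version 1.42.0) on recovered reads stand in here as alternatives. The replicate number from the sample titles was tried as a block because all 9 same-number pairs of libraries deviated together (correlation above 0.1, mean 0.325). The mean of −0.161 for other pairs largely follows from taking deviations from time-point means, and is not separate evidence. The study describes the replicates as separate biological experiments. No 2 libraries of the same time point agreed within sampling noise (chi-square per degree of freedom of 5.39 or more). Named genes were the 10, Tcf3, Sox2, Nanog, genes overlapping the 10 and, from each list, up to 6 that passed at 24 h by size of change. Coordinates are those of GENCODE M21. The tests were also tried on simulated data, the outcome of which is not given here.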

Additional observations from a re-analysis of the deposited data

How the results depend on the processing

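At 18 h 2 of the 10 genes passed, and 1 did with no filter on low values or with quantile normalization, 0 with the libraries of the 2 time points alone, 5 with the replicate block, 5 with edgeR and the block, 3 with DESeq2 and 0 to 2 with a library left out. At 24 h 3 passed, and 5 did with the block in limma and in edgeR and 1 to 3 with a library left out. Between 18 h and 24 h 0 of the 10 passed (4 of all 17951 genes), and 2 did in edgeR with the block (213 of all 19210). Apart from the calls given with each gene, the block changed no other call of the 10. Of 570 comparisons of a gene's log2 fold-change with that under another setting, 523 kept direction and side of the threshold. Most of the 570 were of values that had not passed, so that this share does not measure the stability of the calls. A call was lost in 16, all of Pou5f1, Fgf5 or Lin28a, a call was gained in 13 and the sign changed in 18. With a library left out, values that had not passed changed sign within −0.070 to 0.23 for Otx2 at 18 h, −0.0094 to 0.26 at 24 h and −0.12 to 0.21 between 18 h and 24 h, within −0.0091 to 0.14 for Pou3f1, −0.019 to 0.071 for Sall4, −0.29 to 0.15 for Dppa4, −0.042 to 0.16 for Lin28b and −0.23 to 0.013 for Grhl2 between 18 h and 24 h, and within −0.25 to 0.034 for Utf1, −0.054 to 0.15 for Lin28b and −0.11 to 0.13 for Grhl2 at 18 h. At 24 h Utf1 ranged from −0.55 to −0.28, Lin28b from 0.026 to 0.21, Grhl2 from −0.21 to −0.0034 and Sox2 from −0.094 to 0.061. Quantile normalization moved Pou3f1 at 24 h to −0.090, and Utf1 and Lin28b at 18 h to −0.020 and 0.052, and turned Lin28a between 18 h and 24 h to 0.020 and Sox2 at 24 h to 0.11. The 39 genes named from the lists that had passed at 24 h kept their direction under every setting run, and their calls were lost in 100 of 351 fits with a library left out, those of Spint1 and Spry2 in 8 of 9 such fits each, of Cldn4, Epcam, Hmga2 and Thy1 in 7 and of Arid3a, Dppa3 and Tfap2c in 6. With a pseudocount of 1 Pdgfrb moved to 0.67 and Thy1 to −0.48, and with quantile normalization Epcam moved to −0.15. Leaving out a library moved Mycn within −0.62 to −0.24, Nes within 0.22 to 0.58 and T to −0.59 without replicate 1 of 24 h. With the libraries of the 2 time points alone 2 naive genes, 1 paralogue, 3 epithelial genes, 1 pluripotent marker and 0 fibroblast markers passed at 24 h, and with no filter 1 paralogue, 4 epithelial genes and 1 fibroblast marker. With edgeR and the block, where 16.4% of all genes rose and 14.9% fell, 6 formative genes rose and 12 fell, as did 4 and 10 naive genes, 3 and 9 Oct4-related genes, 3 and 3 paralogues, 7 and 0 neural, 4 and 1 trophoblast, 1 and 2 mesendoderm and 1 and 1 primitive endoderm markers. With a pseudocount of 0.01 1 fibroblast and 1 mesendoderm marker did. The causes were not tested. The fewest reads behind a value of the 10 genes were the 215 of Fgf5 in replicate 1 of 0 h.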
